A study of Rattus norvegicus with 12 samples.

Results

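The cardiac natriuretic peptide system was examined in the left ventricle of the rat after treadmill running: the peptide precursors Nppa and Nppb, the receptors Npr1, Npr2 and Npr3, and the peptide-amidating enzyme Pam. Every probe set whose annotation gave 1 gene symbol equal to one of these 6 genes was included, which made 18 of the 8740 probe sets on the array. Nppa had 4 probe sets, Nppb 1, Npr1 3, Npr2 1, Npr3 2 and Pam 7. A probe set is a group of short probes read together, and several probe sets of 1 gene can read different stretches or records of it. Probe sequences were not available, so binding to transcripts of other genes was not checked.

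Total RNA of heart left ventricle was measured on 12 single-colour expression arrays, 6 labelled exercised (numbers 1, 4, 5, 7, 8 and 9) and 6 labelled sedentary (numbers 13, 16, 17, 21, 23 and 24). The exercised samples were taken after 7 weeks of treadmill running, the sedentary ones from rats that did not run, and the series was filed under exercise-induced cardiac hypertrophy. No allele, transgene or drug was named for either group, and the sources used here give no strain, age, sex, running schedule or time between the last run and sampling. The labels do not say that each number is 1 rat, so each p-value compares a difference with the scatter among these samples, and that scatter may be technical.

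Nppa encodes the precursor of atrial natriuretic peptide and Nppb that of brain natriuretic peptide. Heart muscle cells release both when stretched, and in the blood they lower volume and pressure. In the adult heart Nppa is made mostly in the atria, and its return in the ventricle is a classical mark of pathological overload. Npr1 and Npr2 are membrane guanylyl cyclases that make cyclic GMP on binding a natriuretic peptide, while Npr3 has no cyclase domain and takes the peptides up for degradation. Pam adds the C-terminal amide to many peptide hormones and is a major membrane protein of the atrial secretory granules that store the Nppa product.

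The promoters of the peptide genes are shown because Nppa and Nppb lie side by side on chromosome 5, with 0 genes between them in the RefSeq table of build GRCr8, and yet had different spreads between arrays. The windows run up to the start of each gene, 5′ to 3′ on the + strand, and capitals mark the GATA motif (TGATAA or AGATAA), the kind of site bound by the cardiac factor Gata4.
Nppa promoter, chr5:163711934-163712183: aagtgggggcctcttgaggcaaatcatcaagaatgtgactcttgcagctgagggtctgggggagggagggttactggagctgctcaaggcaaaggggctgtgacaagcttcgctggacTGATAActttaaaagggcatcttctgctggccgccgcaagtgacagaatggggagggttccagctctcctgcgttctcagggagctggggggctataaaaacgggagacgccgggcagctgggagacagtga
Nppb promoter, chr5:163699758-163699954: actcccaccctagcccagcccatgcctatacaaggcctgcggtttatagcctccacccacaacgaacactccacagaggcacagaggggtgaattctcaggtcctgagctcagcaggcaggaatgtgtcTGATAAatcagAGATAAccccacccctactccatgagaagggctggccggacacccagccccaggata
The Nppa window of 250 bases held 1 GATA match, which ended 126 bases before the end of the window. The Nppb window of 197 bases held 2 GATA matches, which ended 62 and 51 bases before its end. Such a match on either strand was present in 16.9% of 33469 rat promoters over the longer window and in 14.1% over the shorter one. The letters AAGTG, contained in sites of Nkx2-5, matched 2 times in Nppa and 0 times in Nppb, against 40.6% and 33.5% of promoters with a match. The letters TATAAA occurred 1 time in each window, ending 33 bases before the end in Nppa and lying on the opposite strand in Nppb, with 12.9% and 9.86% of promoters holding them. CATTCC, the core of the M-CAT element, had 0 matches in Nppa and 1 on the opposite strand in Nppb, against 12.1% and 9.58% of promoters. No match overlapped a match of another motif, and a match is a description of the letters only.

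No probe set of the 6 genes passed the test between the groups. Differences are exercised minus sedentary means of log2(intensity + 363), given ± SE with n = 6 per group, and p-values are from limma, adjusted over the 6555 probe sets bright enough to be tested. Of the 18 probe sets 15 were tested and 3 were too dim. The count past an adjusted p of 0.05 was 0 of 15, while 21 of all 6555 probe sets, or 0.320%, passed it. By sign 11 of the 15 were higher in the exercised samples and 4 lower, while 51.4% of all tested probe sets were higher. Repeated readings of Nppa and Pam made 9 of those 11, and by the brightest probe set of each gene 3 genes were higher (Nppa, Nppb and Pam) and 3 lower (Npr1, Npr2 and Npr3). An unadjusted p under 0.05 was found for 4 of the 15 (16.2% of all tested probe sets), namely 3 Pam probe sets that were higher (9.26% of all) and the Npr2 probe set, which was lower (6.91% of all). The median difference of the 15 was 0.07, and that of all tested probe sets 0.00.

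**Figure D1:**
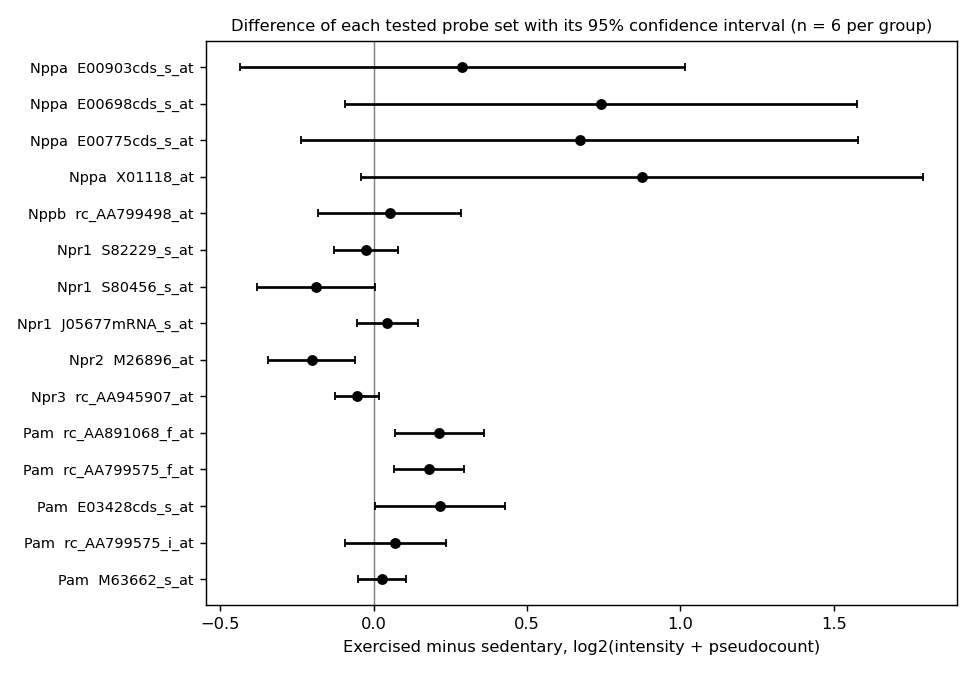
Difference between exercised and sedentary means of log2(intensity + 363) for each of the 15 tested probe sets, with its 95% confidence interval from limma (n = 6 per group). The Nppa intervals are the widest and all 4 span 0, and the Pam and Npr2 probe sets with an interval clear of 0 differ by 0.22 or less.

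Nppa was the most variable member within both groups, and its group means differed by less than that spread. On the probe set with the highest signal (E00903cds_s_at), the exercised arrays had a lowest intensity of 7240, a median of 11078 and a highest of 23843. The sedentary arrays had a lowest of 5870, a median of 7966 and a highest of 26157. The groups overlapped over nearly their whole range, and the highest array of all was sedentary. The means were 12682 ± 6136 (SD, n = 6) in exercised and 10943 ± 7670 (SD, n = 6) in sedentary samples, a difference of 0.29 ± 0.34 with a 95% confidence interval from -0.44 to 1.01. The limma adjusted p was 0.680 and the two-sided exact permutation p over all 924 splits of the 12 arrays was 0.476. In bulk RNA, fewer cells that make a transcript and less of it per cell cannot be told apart, which holds for every gene here.

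The other Nppa probe sets gave larger differences, again with overlapping groups, and on each of them the highest array was exercised 4 instead of sedentary 16. On X01118_at the exercised values ran from 3645 over a median of 8862 to 20147, and the sedentary values from 2325 over 4242 to 15189. The difference was 0.88 ± 0.43 (95% confidence interval -0.04 to 1.79, limma adjusted p = 0.331, exact permutation p = 0.117). On E00698cds_s_at the range was 4227 to 19144 with a median of 9804 in exercised and 3174 to 18545 with a median of 4859 in sedentary samples. The difference there was 0.74 ± 0.39 (limma adjusted p = 0.364, exact permutation p = 0.143). On E00775cds_s_at the medians were 8397 and 4356, the difference was 0.67 ± 0.42 and the limma adjusted p was 0.446. In each of the 4 probe sets 5 of 6 exercised arrays lay above the sedentary median. The pairwise Pearson r of the 4 probe sets lay between 0.94 and 0.99 over the same 12 arrays, although the order of the arrays differed in places. They are repeated readings of 1 gene in the same samples.

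Within a group the highest array exceeded the lowest by 3.29 to 5.53 times in exercised and by 4.46 to 6.53 times in sedentary samples, over the 4 Nppa probe sets. The within-group SD on the log2 scale was 0.69 to 0.88, against a median of 0.10 over all tested probe sets. Only 7, 4, 3 and 2 of the 6555 tested probe sets had a larger within-group SD than E00903cds_s_at, E00698cds_s_at, E00775cds_s_at and X01118_at, respectively.

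**Figure D2:**
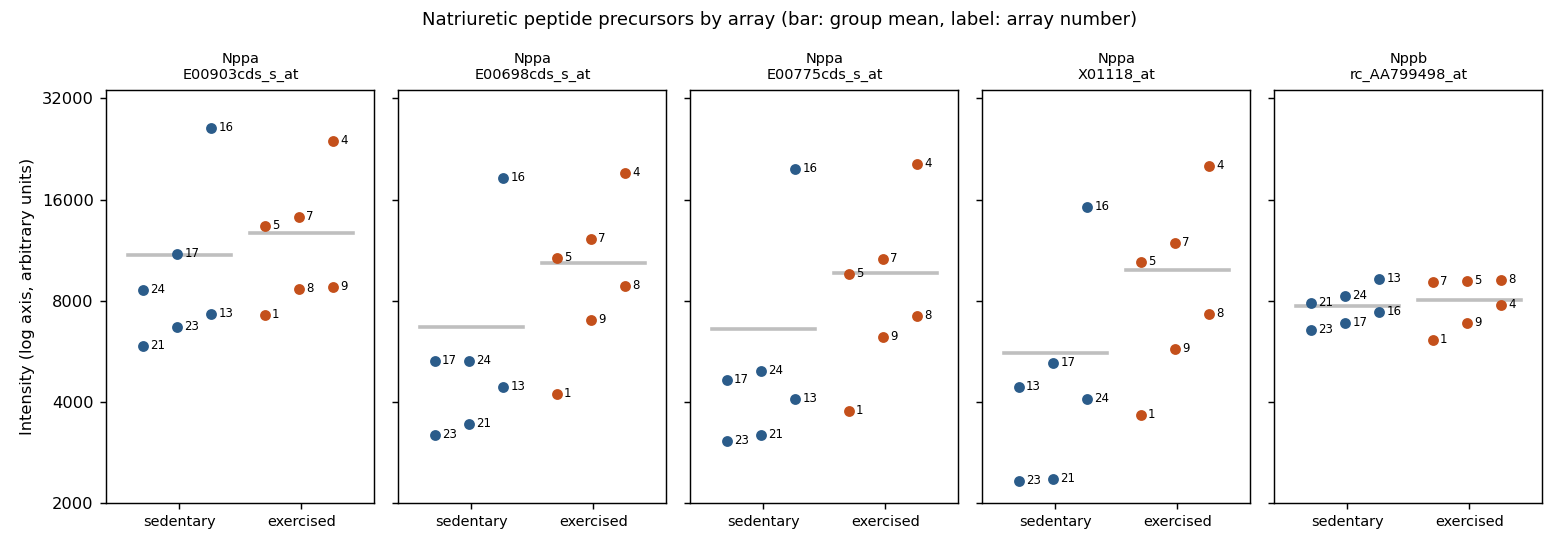
Intensity on a log axis of the 4 Nppa probe sets and the Nppb probe set on each of the 12 arrays, by group. Exercised 4 and sedentary 16 are the highest of their groups in each Nppa probe set, and Nppb stays between 6120 and 9277 on all arrays.

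Sedentary 16 and exercised 4 were the highest arrays of their groups on every Nppa probe set. Sedentary 16 had an Nppa intensity of 26157 on E00903cds_s_at, while the other 5 sedentary arrays ranged from 5870 to 11032. The same array read 8652 for Myl7, the atrial regulatory myosin light chain, against 1136 to 1923 on the other sedentary and 1323 to 1499 on the exercised arrays. It also read 2117 for Myl4, the atrial essential light chain, against 844 to 1189 on the other sedentary arrays. The summed intensity of the 6 tested genes of an atrial myocyte marker list (17 listed) was 15894 on sedentary 16. It was 6669 to 7879 on the other 11 arrays, and 0 of the list's genes were at 0. Myl7 was 8652 of the sum on sedentary 16, and the rise was not shared by all atrial genes. Kcna5, an atrial potassium channel, read 756 there, inside the 651 to 1119 of the other sedentary arrays. Kcnj5, another potassium channel, read 779 there. The exercised arrays read 814 to 902 for Kcnj5 and the other sedentary arrays 823 to 1255. The part of the atrial markers in the Nppa result was not tested beyond leaving sedentary 16 out.

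Without sedentary 16 the Nppa differences grew to 0.57 on E00903cds_s_at (limma adjusted p = 0.334), 1.08 on E00698cds_s_at (0.146), 1.04 on E00775cds_s_at (0.173) and 1.21 on X01118_at (0.165). On all but E00903cds_s_at, 5 of 6 exercised arrays then lay above each of the 5 remaining sedentary arrays, and on E00903cds_s_at 3 of 6 did. Leaving out exercised 4 moved them the other way, to 0.09, 0.54, 0.42 and 0.64 in the same order of probe sets. Without both arrays they were 0.37 ± 0.20, 0.88 ± 0.24, 0.80 ± 0.23 and 0.97 ± 0.30, with limma adjusted p of 0.457, 0.183, 0.210 and 0.223. Over all alternatives tried, the adjusted p of the 4 Nppa probe sets lay between 0.133 and 0.992, so none passed under any of them.

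**Figure D3:**
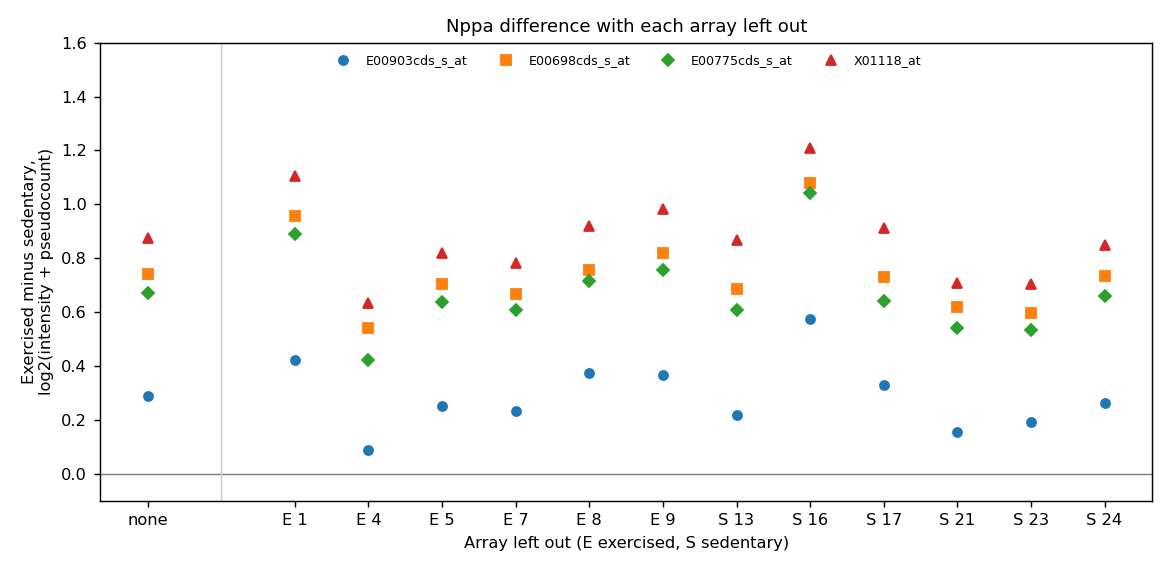
Difference of each Nppa probe set on the log2(intensity + 363) scale with all 12 arrays and with each array left out in turn. Among single arrays, leaving out sedentary 16 gives the largest value of each probe set and leaving out exercised 4 the smallest.

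Exercised 4 and 5, 2 of the 3 highest exercised arrays for Nppa, also differed from the rest in other cell markers. Their beta-globin (Hbb) intensity was 15784 and 8786, against 28362 to 37794 on the other 10 arrays. Fibroblast markers (12 tested of 15 listed) summed to 63496 and 52580 on them, while the other 4 exercised arrays reached 46265 at most and the sedentary arrays 45063 at most. Without both arrays the difference of Nppa on E00903cds_s_at was -0.01 (limma adjusted p = 0.992), and on the other 3 probe sets it was 0.44, 0.32 and 0.51. Whether blood or connective tissue content plays a part in the Nppa values was not tested.

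The relation of Nppa to 8 chosen genes was computed across the 12 arrays on the log2 scale, using the probe set with the highest signal for each gene, with permutation p from 100000 resamples. Nppb, the paralog next to it, gave r = 0.13 (rho = 0.14, permutation p = 0.677, adjusted over the 8 relations 0.822). Without sedentary 16 and exercised 4, the arrays farthest from the Nppa median, that r was 0.40. Acta1, skeletal alpha-actin, gave r = 0.40 (rho = 0.45, permutation p = 0.196, adjusted 0.470), and 0.66 without those arrays. Myl7 gave r = 0.60 (rho = 0.47, permutation p = 0.0363, adjusted 0.158), which fell to 0.11 without sedentary 16 alone, so that relation rests on 1 array. Myl4 gave r = 0.59 (rho = 0.32, permutation p = 0.0395, adjusted 0.158) and 0.14 without sedentary 16. With the group means removed, which keeps sedentary 16, the Myl4 relation was 0.83 (adjusted permutation p = 0.00272), so its call depends on that choice. Within the groups the Myl4 relation was 0.83 in the 6 exercised arrays (exact permutation p = 0.0347, adjusted 0.278) and 0.99 in the 6 sedentary arrays (exact permutation p = 0.00417, adjusted 0.0334). For Pam, Npr3, Ankrd1 and Hbb, r was 0.16, -0.05, 0.11 and -0.38, with rho of 0.25, -0.21, 0.28 and -0.24 and adjusted permutation p between 0.470 and 0.863.

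**Figure D4:**
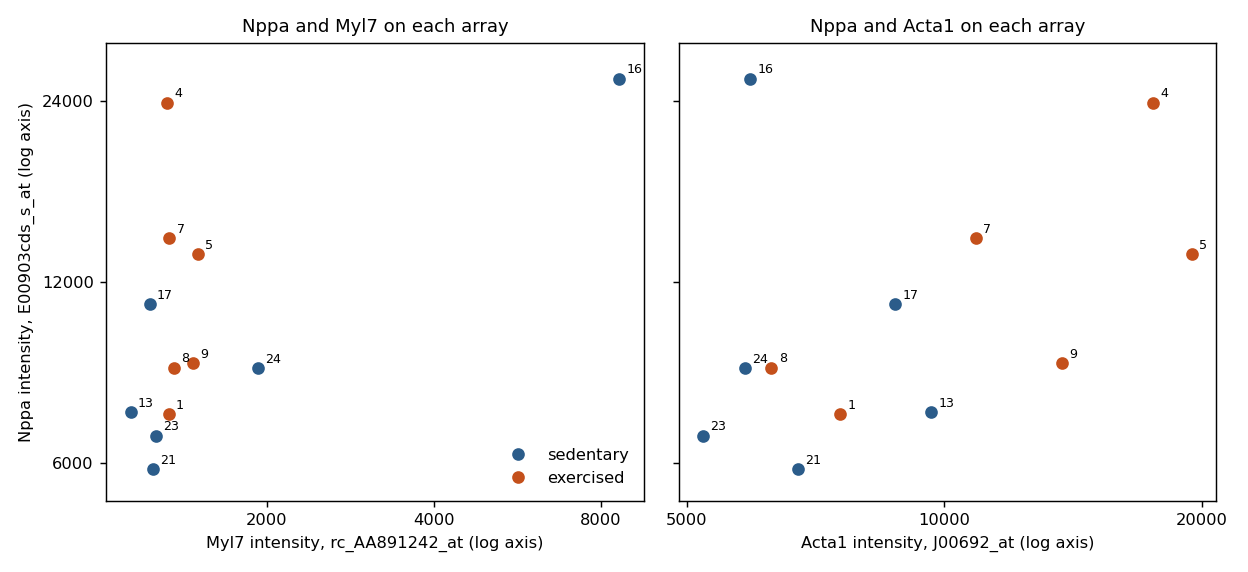
Nppa (E00903cds_s_at) against Myl7 and Acta1 on the 12 arrays, intensity on log axes, 1 point per array. Sedentary 16 lies apart in the Myl7 panel. In the Acta1 panel r is 0.40 over the 12 arrays, and 0.66 without sedentary 16 and exercised 4.

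Nppb did not share the Nppa spread and differed little between groups. Its single probe set (rc_AA799498_at) read 6120 at the lowest, 8425 at the median and 9215 at the highest in exercised samples. In sedentary samples it read 6530, 7625 and 9277. The groups overlapped, with 1 exercised array below all sedentary arrays and 1 sedentary array above all exercised ones. The means were 8035 ± 1340 (SD, n = 6) and 7696 ± 996 (SD, n = 6), a difference of 0.05 ± 0.11 with a 95% confidence interval from -0.18 to 0.29 (limma adjusted p = 0.827, exact permutation p = 0.667). Sedentary 16, the highest sedentary array on each Nppa probe set, had an Nppb intensity of 7381, inside the range of the other sedentary arrays. The within-group SD of Nppb was 0.21 on the log2 scale, and 6.21% of tested probe sets had a larger one.

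Of the cyclase receptors, Npr2, which binds C-type natriuretic peptide, was lower in the exercised samples by sign. Its probe set (M26896_at) ran from 2368 over a median of 2504 to 2792 in exercised and from 2574 over 2921 to 3557 in sedentary samples. The groups overlapped, with 4 of 6 sedentary arrays above every exercised array. The means were 2524 ± 147 and 2970 ± 349 (SD, n = 6 each), a difference of -0.20 ± 0.07 (95% confidence interval -0.35 to -0.06). The unadjusted limma p was 0.00872 and the exact permutation p 0.0130, but the limma adjusted p was 0.160. Over the alternatives the difference stayed between -0.24 and -0.14 with adjusted p from 0.109 to 0.339.

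Npr1, the receptor of the Nppa and Nppb peptides, had 3 probe sets that differed in sign. S80456_s_at read 1380 to 1819 with a median of 1638 in exercised and 1582 to 2559 with a median of 1781 in sedentary samples. Its difference was -0.19 ± 0.09 (limma adjusted p = 0.318, exact permutation p = 0.0779), and it was -0.11 without sedentary 17, the highest array. S82229_s_at had medians of 2500 and 2460 and a difference of -0.03 ± 0.05 (limma adjusted p = 0.799, 95% confidence interval -0.13 to 0.08), whose sign turned when sedentary 17 was left out. J05677mRNA_s_at had medians of 1650 and 1584 and a difference of 0.04 ± 0.05 (limma adjusted p = 0.644). All 3 ranges overlapped between the groups.

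Npr3, the clearance receptor, was near the dim end of the array. Its tested probe set (rc_AA945907_at) read 509 to 580 with a median of 568 in exercised and 543 to 645 with a median of 601 in sedentary samples. The groups overlapped, and the difference was -0.05 ± 0.03 (limma adjusted p = 0.437, exact permutation p = 0.0649). The other probe set (S79624_at) had means of 270 ± 12.4 and 266 ± 24.9 (SD, n = 6 each), below the minimum signal, and was not tested.

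Pam was the member with the most regular difference, higher in the exercised samples on its 3 brightest probe sets, although none passed the adjusted threshold. On rc_AA799575_f_at the exercised arrays read 11143 to 12723 with a median of 11604, and the sedentary arrays 9234 to 11103 with a median of 10517. Every exercised array lay above every sedentary array, by a narrow gap, which was the case for 1.50% of all tested probe sets. The means were 11803 ± 620 and 10384 ± 642 (SD, n = 6 each), a difference of 0.18 ± 0.05 (95% confidence interval 0.07 to 0.29). The exact permutation p was 0.00216, the smallest that 6 against 6 arrays can give, and the unadjusted limma p was 0.00459 with an adjusted p of 0.125.

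On rc_AA891068_f_at the exercised values ran from 14971 over a median of 16951 to 17803 and the sedentary values from 11796 over 14861 to 15556. Here 5 of 6 exercised arrays lay above every sedentary array. The difference was 0.21 ± 0.07 (95% confidence interval 0.07 to 0.36, limma adjusted p = 0.149, exact permutation p = 0.00866). On E03428cds_s_at the exercised range was 8595 to 10916 and the sedentary range 6049 to 9322, with medians of 10033 and 8913. These groups overlapped more, and the difference was 0.22 ± 0.10 (limma adjusted p = 0.298, exact permutation p = 0.0519).

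The dimmer Pam probe sets did not show that size of difference. M63662_s_at differed by 0.03 ± 0.04 (limma adjusted p = 0.737) and rc_AA799575_i_at by 0.07 ± 0.08 (limma adjusted p = 0.663). M82845_s_at (189 ± 15.1 in exercised, 220 ± 25.7 in sedentary, SD, n = 6 each) and rc_AA799575_r_at (123 ± 10.1 and 157 ± 49.2) were below the minimum signal and were not tested. Across the 12 arrays rc_AA891068_f_at correlated with rc_AA799575_f_at at r = 0.85, with E03428cds_s_at at 0.91 and with M63662_s_at at 0.74, but with rc_AA799575_i_at at 0.18. With the dim M82845_s_at and rc_AA799575_r_at its r was negative, at -0.70 and -0.78. Within the 6 exercised arrays its r with rc_AA799575_f_at was 0.30, and within the 6 sedentary arrays 0.88. These r are descriptions of readings of the same samples.

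Sedentary 17 was the lowest array on each of the 3 bright Pam probe sets, with 9234, 11796 and 6049. It also stood apart over the whole array, its median absolute deviation from the mean of the other arrays being 0.16 on the log2 scale against 0.05 to 0.07 for the other 11. Without it the differences were 0.15 on rc_AA799575_f_at, 0.16 on rc_AA891068_f_at (limma adjusted p = 0.143) and 0.13 on E03428cds_s_at (limma adjusted p = 0.377). Quantile normalization gave 0.10, 0.14 and 0.14 in the same order, with adjusted p of 0.345 on rc_AA799575_f_at and 0.340 on rc_AA891068_f_at. The direction held in all of these, and the size of each of the 3 Pam differences moved by over 1.5 times in at least 1 of them.

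**Figure D5:**
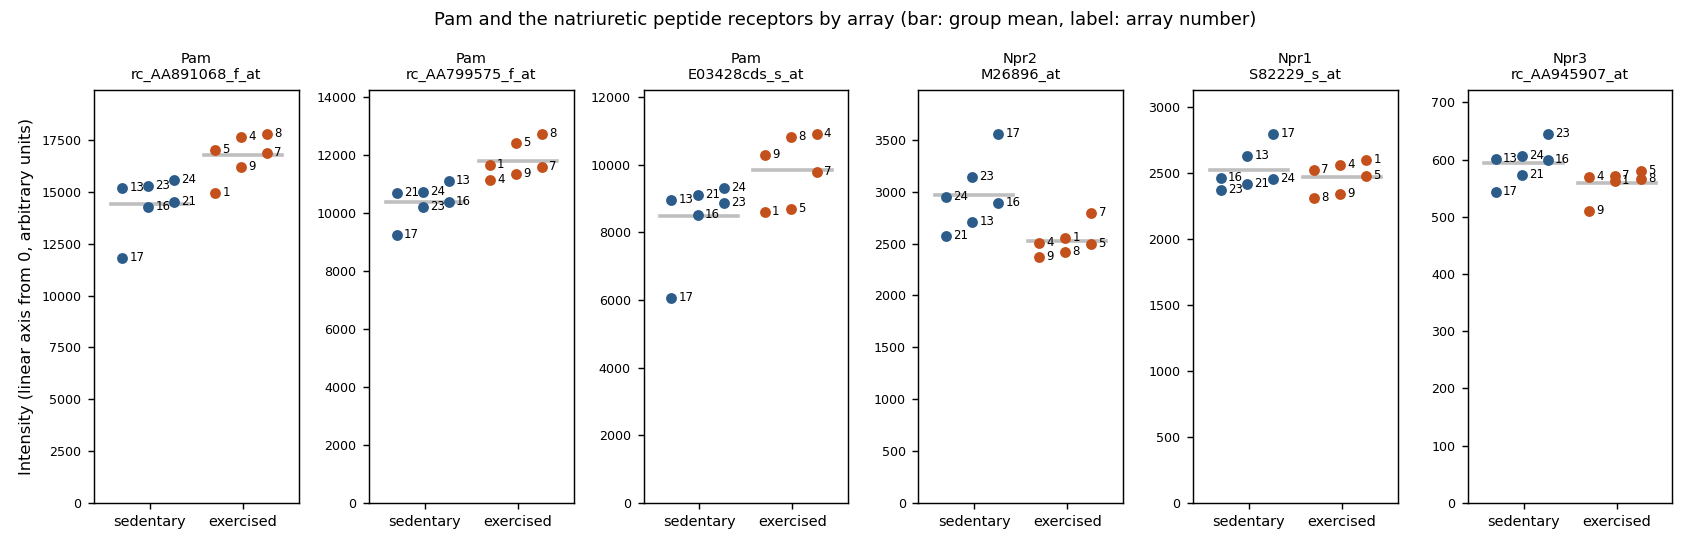
Intensity on each array, by group, of the brightest Pam probe sets (rc_AA891068_f_at, rc_AA799575_f_at and E03428cds_s_at), Npr2 M26896_at, Npr1 S82229_s_at and Npr3 rc_AA945907_at. The other tested Pam and Npr1 probe sets are not drawn. The exercised points of Pam rc_AA799575_f_at all lie above the sedentary ones, and the Npr2 points lie lower in exercised samples with overlap.

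The genes most like each member were listed by Pearson r over the 12 arrays, among 3875 other genes by their brightest probe set, as a description. For Nppa (E00903cds_s_at) these were Fstl1, a secreted follistatin-like glycoprotein (r = 0.83), Col3a1, the type III collagen chain of connective tissue (0.80), and Gpx3, extracellular glutathione peroxidase (0.77). Without sedentary 16 and exercised 4 these were 0.81, 0.72 and 0.48. For Nppb they were Adipor2, an adiponectin receptor (0.80), Tsc22d1 (0.80) and the histone H2ax (0.73), and 0.78, 0.71 and 0.59 without exercised 1 and sedentary 23. For Pam (rc_AA891068_f_at) they were Septin8 (0.95), the inositol monophosphatase Impa1 (0.94) and the RNA helicase Ddx50 (0.91), and 0.82, 0.82 and 0.73 without sedentary 17 and exercised 8. The points share arrays and scaling, and sedentary 17 was low in Pam, Septin8, Impa1 and Ddx50 alike.

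Genes that process and store the peptides or take the Pam reaction did not pass the test. In lists each gene counts by its brightest probe set. Over all 3876 genes 0.413% passed, 51.5% were higher by sign, and an unadjusted p under 0.05 was found for 9.21% higher and 6.91% lower. Of 10 tested genes of peptide processing, clearance and secretory granules (16 listed) 0 passed, with a median difference of 0.02, and 0 had an unadjusted p under 0.05. Mme, the neprilysin that degrades natriuretic peptides, differed by -0.09, Furin, a proprotein convertase, by -0.07. Nppc, the C-type peptide precursor, differed by -0.19 with its highest value of 1521 on sedentary 17, against 671 to 780 on the other sedentary arrays. Without sedentary 17 the Nppc difference was -0.06, and its other probe set (E04009cds_s_at) gave -0.01. Of 18 tested genes of a list drawn up mostly of peptides that Pam amidates (22 listed) 0 passed, and the median was -0.01. Adm, adrenomedullin, differed by -0.01 and Calca, the calcitonin and CGRP gene, by 0.09.

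Of 15 tested genes of cyclic GMP signalling (30 listed), which include guanylyl cyclases other than Npr1 and Npr2, 0 passed. At an unadjusted p under 0.05, 1 was higher and 4 were lower, and the median difference was -0.04. Pde5a, the phosphodiesterase that degrades cyclic GMP, ran from 1394 over a median of 1662 to 1813 in exercised and from 1705 over 2011 to 2283 in sedentary samples. Those groups overlapped, and the difference was -0.24 ± 0.07 (limma adjusted p = 0.104). Pde2a, a phosphodiesterase stimulated by cyclic GMP, differed by 0.10 (limma adjusted p = 0.356) and the guanylyl cyclase Gucy2d by -0.14 (0.169).

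Of 14 tested transcription factors of the Nppa and Nppb promoters (33 listed) 0 passed and the median was -0.05. Gata4, which binds the GATA motif printed above, had medians of 1573 and 1557 and a difference of 0.04, while its other probe set gave -0.13. Nkx2-5 differed by -0.04 (limma adjusted p = 0.738). The thyroid hormone receptor Thra was lower by 0.21 on its brightest probe set (limma adjusted p = 0.151), with 0.10 and -0.01 on its others.

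Among 9 tested load-responsive myocyte genes (17 listed), to which Nppa and Nppb are usually counted, 1 rose, 4 were higher and 1 lower at an unadjusted p under 0.05, and the median difference was 0.12. The gene that rose was Csrp3, a LIM-domain protein found at the Z-disc, with 14056 to 22909 in exercised and 10381 to 13423 in sedentary samples, a difference of 0.58 (limma adjusted p = 0.0302). When 1 array was left out, the Csrp3 difference stayed between 0.50 and 0.64, and the call held in 4 of 12 fits, those without exercised 1, exercised 8, sedentary 13 or sedentary 17. In the other 8 the limma adjusted p was 0.0581 to 0.0866, and the call was also lost with quantile normalization (0.0683) and without each of the 3 pairs of arrays (0.088 to 0.122). Acta1 ran from 6279 over a median of 12299 to 19463 in exercised and from 5223 over 6337 to 9653 in sedentary samples, a difference of 0.73 ± 0.25 (limma adjusted p = 0.169). Ankrd1, a cardiac ankyrin repeat protein, differed by 0.21 (limma adjusted p = 0.280) and Myh7, the slow myosin heavy chain, by 0.04 (0.516).

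The labelled tissue was checked with markers. The 13 tested ventricular myocyte markers (16 listed) summed to 423030 to 472411 on the 12 arrays, with 0 passing and a median difference of 0.02. Apart from Lyz2, the macrophage lysozyme, which rose by 1.0 (limma adjusted p = 0.0404), 0 genes passed in the atrial, endothelial, fibroblast, smooth muscle, nerve, erythroid and macrophage lists. With 1 array left out the Lyz2 call held in 4 of 12 fits, those without exercised 1, exercised 4, exercised 8 or sedentary 13, and the limma adjusted p reached 0.104 in the others. The median differences of the 7 lists were -0.16, -0.03, 0.16, 0.17, -0.02, -0.43 and -0.02 over 6, 6, 12, 5, 10, 4 and 10 tested genes. At an unadjusted p under 0.05, 3 fibroblast, 3 smooth muscle, 1 nerve and 2 macrophage genes were higher, Lyz2 included. In the other direction 1 atrial gene (Kcna5, an atrial potassium channel, with a difference of -0.23), 2 erythroid genes and 1 macrophage gene were lower, and 0 endothelial genes had such a p.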

How the data were processed

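The authors deposited 1 linear intensity for each probe set and array. How they scanned, background-corrected and scaled the arrays is not given in the sources used here. Array medians ran from 840 to 875, and the deposited scaling was kept. Values below 0 were set to 0, and a pseudocount of 363 (the 20th percentile of all values) was added before log2, which understates differences of dim probe sets. Of 8740 probe sets, 6555 were tested, those with a mean intensity over 434, which is the 25th percentile of the means. The fit was limma 3.58.1 in R 4.3.3 (lmFit and eBayes with a trend, two-sided) with Benjamini-Hochberg adjustment over those 6555 and a threshold of 0.05. It was tested on simulated data. Exact permutation tests over the arrays stand beside it for the members.

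Gene names came from the platform annotation, which gave 1 gene for 7006 probe sets, several for 308 and did not list 1426. Of the first, 6985 matched RefSeq by Entrez ID. Promoters are from RefSeq, build GRCr8, 250 bases before the start, ending where the gene begins and cut to 197 for Nppb. The members, gene lists and tests were chosen with earlier results of these data known. Named genes were all members, a panel of genes of the pathway, the list genes that passed (otherwise the pair of smallest unadjusted p per list) and the 3 genes most like Nppa, Nppb and Pam. Corin, Prkg1, Mef2c, Srf and Sln of that panel were not analysed here. No pairing or batch was used. Other pseudocounts, filters, scalings, variance models, array weights, a rank-sum test and left-out arrays were tried. The number of arrays limits the precision.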

Additional observations from a re-analysis of the deposited data

Results flagged for a closer look

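A single array far from the others of its group (Dixon's test for groups of 6, at the 95% level) was found for the probe sets given here. It was met in 21 of the 124 groups looked at, 12 times by sedentary 17 and 5 times by sedentary 16, and chance alone marks about 1 in 20 groups. Among members, sedentary 16 read 18545 for Nppa on E00698cds_s_at and 19749 on E00775cds_s_at, where the other sedentary arrays reached 5289 and 4949 at most. Exercised 9 read 509 for Npr3 (rc_AA945907_at), below the 562 to 580 of the other exercised arrays. Sedentary 17 was low for Pam on rc_AA891068_f_at (11796), E03428cds_s_at (6049) and M63662_s_at (571), and high on the dim rc_AA799575_r_at (254).

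Among the other genes sedentary 17 was high in Nppc (1521), Kcna5 (1119), Vwf (1394), Flt1 (2689) and Kcnj5 (1255), and low in Alas2 (2140), Septin8 (333) and Ddx50 (637). Sedentary 16 was high in Myl4 (2117), Myl7 (8652) and Col3a1 (8244). Exercised 7 was low in Kcna5 (412), sedentary 24 was low in Myl2 (38668) and sedentary 13 was high in Adipor2 (2820). The deviations of sedentary 17 fall beside its median absolute deviation of 0.16 over all tested probe sets.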

How the results depend on the processing

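Over the alternatives, 0 of the 15 tested member probe sets passed an adjusted p of 0.05, and limma's lowest adjusted p among them was 0.0859 (Pam rc_AA799575_f_at). The sign turned for Nppa E00903cds_s_at without exercised 4 and 5 (-0.010), for Npr1 S82229_s_at with array weights (0.012) and for Pam M63662_s_at with array weights (-0.0032) or without sedentary 16 and 17 (-0.0084). It turned for Myl7 without sedentary 16 and 17 (0.014) or exercised 4 and sedentary 16 (0.049), and for Kcnj5 with array weights (0.032) or without sedentary 16 and 17 (0.024). Adm gave 0.022 with array weights, 0.024 without exercised 4 and 5, 0.070 without sedentary 16 and 17 and 0.014 without exercised 4 and sedentary 16. The 21 probe sets that passed became 32 with no filter, 50 with the filter at the median, 42 with no trend, 160 with array weights, 144 at a threshold of 0.10, and 0 by the exact rank-sum test (989 at an unadjusted p under 0.05), where the smallest p that 6 against 6 arrays can give adjusts to 0.104 and no probe set could pass. They became 4, 5 and 4 without exercised 4 and 5, sedentary 16 and 17, and exercised 4 and sedentary 16, and those whose groups do not overlap became 251, 236 and 208. With group means removed, r of Nppa was -0.000034 with Pam, 0.080 with Npr3, -0.0066 with Ankrd1 and 0.83 with Myl4 (adjusted permutation p = 0.00272). Leaving out 1 array at a time gave 3 to 37 probe sets that passed and 155 to 295 that did not overlap. It gave -0.041 to 0.00025 for Npr1 S82229_s_at, -0.00099 to 0.036 for Pam M63662_s_at, -0.48 to 0.039 for Myl7, -0.060 to 0.041 for Kcnj5, -0.049 to 0.047 for Adm and -0.019 to 0.085 for Myl2. It gave r of -0.048 to 0.38 for Pam, -0.23 to 0.16 for Npr3 and -0.036 to 0.44 for Ankrd1. Apart from that rise in the count without overlap, the cause of these changes was not tested. No paired analysis was possible because no sample number occurs in both groups. Signal over background is unknown, and 3 member probe sets were too dim to test.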
